A study of Homo sapiens with 9 samples.

Results

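The GAGE, PAGE, XAGE, SSX, SPANX and CTAG genes belong to the cancer-testis antigens of the X chromosome, and 40 probes on the array carried one of their names, out of 50599 probes that were not controls. The 40 probes stood for 30 gene names (of 36337) and were chosen by name alone: every probe whose gene name began with GAGE, PAGE, XAGE, SSX, SPANX or CTAG was taken, except SSX2IP and names beginning with CTAGE, which are other genes. There were 13 SSX probes (7 genes), 10 SPANX probes (8 genes), 6 PAGE probes (5 genes), 6 XAGE probes (5 genes), 3 GAGE probes (3 genes) and 2 CTAG probes (2 genes). The array's own annotation placed all 40 on the X chromosome.

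Expression was measured in RKO, a human colorectal cancer cell line with many methylated gene promoters. Cells received either a control siRNA (siCONT) or an siRNA against UHRF1, and 72 h later ethanol (mock) or 300 nM trichostatin A (TSA) was added for 24 h. The siCONT, siUHRF1, siCONT + TSA and siUHRF1 + TSA groups had 2 arrays each. In the 2 groups with UHRF1 depletion, replicate 1 carried siUHRF1-1 and replicate 2 carried siUHRF1-2. A single further array held RKO cells kept for 72 h in 1 µM 5-aza-dC, a cytidine analogue (5-aza-2'-deoxycytidine), with no siRNA, so it had no control of its own. All groups came from the same cell line. For siCONT and siCONT + TSA, nothing in the labels says whether the 2 arrays came from separate cultures. With UHRF1 depletion the 2 arrays of a group had different siRNAs, so their spread includes any difference between the siRNAs. The p-values measure only the spread between these arrays.

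UHRF1 recognises hemimethylated DNA behind the replication fork and brings DNMT1 there, so that methylation is copied to the new strand. TSA inhibits histone deacetylases, and 5-aza-dC traps DNA methyltransferases. Cancer-testis antigens are made in male germ cells and placenta, are silent in most other adult tissues with methylated promoters, and reappear in many tumours, where T cells can recognise them. CTAG1A and its twin copy encode NY-ESO-1, a target of vaccines and T cell therapies, and CTAG2 encodes its relative LAGE-1. The GAGE genes form a tandem array of near-identical copies, PAGE and XAGE genes are their relatives, SSX genes encode nuclear repressor proteins whose family members are fusion partners of SS18 in synovial sarcoma, and SPANX genes encode proteins of the sperm nucleus.

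The promoters of the genes that the results turn on are printed here because they show how alike some members are that behaved differently on the arrays. Of the 30 gene names, 29 were matched to a gene of the RefSeq table (GRCh38.p14) and 22 of these had a promoter window. SSX8 and XAGE-4 are listed there as transcribed pseudogenes and SPANXA2-OT1 as a long noncoding RNA. SPANXB2 is listed there as SPANXB1 and GAGE7 as GAGE12F, both matched by synonym only. Whether the GAGE7 probe reads that copy of the tandem array was not tested. Each line gives the 250 bases before the annotated start, 5′ to 3′ on the gene's strand, with the CG dinucleotides, the sites of DNA methylation, in capitals. The windows lie at chrX:49560592-49560841 (GAGE12F, plus strand), chrX:52495627-52495876 (XAGE1A, plus strand), chrX:141002344-141002593 (SPANXB1, plus strand), chrX:145247253-145247502 (SPANXN1, plus strand) and chrX:49829010-49829259 (PAGE4, plus strand).
GAGE12F: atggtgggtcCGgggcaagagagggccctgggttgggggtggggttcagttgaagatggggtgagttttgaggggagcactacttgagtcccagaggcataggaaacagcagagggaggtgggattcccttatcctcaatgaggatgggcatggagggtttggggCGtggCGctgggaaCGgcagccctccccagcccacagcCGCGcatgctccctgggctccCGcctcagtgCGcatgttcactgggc
XAGE1A: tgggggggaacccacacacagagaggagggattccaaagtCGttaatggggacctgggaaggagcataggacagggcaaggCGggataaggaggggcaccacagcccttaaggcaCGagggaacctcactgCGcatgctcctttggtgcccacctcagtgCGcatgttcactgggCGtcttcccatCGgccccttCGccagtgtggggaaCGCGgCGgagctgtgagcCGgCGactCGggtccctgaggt
SPANXB1: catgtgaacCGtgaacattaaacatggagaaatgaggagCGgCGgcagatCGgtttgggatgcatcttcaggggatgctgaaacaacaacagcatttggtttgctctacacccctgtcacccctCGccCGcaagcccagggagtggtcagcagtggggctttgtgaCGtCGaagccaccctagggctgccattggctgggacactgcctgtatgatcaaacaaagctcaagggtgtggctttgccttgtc
SPANXN1: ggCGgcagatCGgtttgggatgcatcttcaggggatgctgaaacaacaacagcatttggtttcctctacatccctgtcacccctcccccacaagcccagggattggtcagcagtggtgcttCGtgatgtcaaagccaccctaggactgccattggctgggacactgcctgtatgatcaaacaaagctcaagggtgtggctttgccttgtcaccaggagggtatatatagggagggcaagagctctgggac
PAGE4: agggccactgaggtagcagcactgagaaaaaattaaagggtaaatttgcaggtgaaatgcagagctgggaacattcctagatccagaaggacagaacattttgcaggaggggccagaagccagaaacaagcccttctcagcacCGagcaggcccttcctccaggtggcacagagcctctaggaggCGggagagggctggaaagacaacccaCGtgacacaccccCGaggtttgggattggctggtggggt

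XAGE1A had the most CG dinucleotides of the 22 windows (14), GAGE12F and SPANXB1 had 8 each, PAGE4 had 4 and SPANXN1 had 3. The window of GAGE1 is the same sequence as that of GAGE12F, shifted by 7 bases, with 243 of 243 aligned bases identical. SPANXB1 and SPANXN1 matched at 200 of 210 aligned bases (95.2%), and in that stretch 2 CG sites were present in both, 4 in SPANXB1 alone and 1 in SPANXN1 alone. Over the 13 genes with a window and a probe above background on both siUHRF1 + TSA arrays, the windows held 1 to 14 CG sites (median 8). Over the 5 that were detected with 5-aza-dC but not on both siUHRF1 + TSA arrays they held 4 to 10 (median 6), and over the 4 detected in neither they held 1 to 5 (median 3.5). The median was 6.5 over the 22 windows and 11 over the 35116 windows of the RefSeq table, of which 44.8% held at least as many as XAGE1A. The counts describe the reference sequence, and no methylation was measured in the arrays used here.

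Most of the family was below the limit of detection in the control cells. A probe was taken as detected where the scanner software marked it as well above background, and signals are given as multiples of the array's 75th percentile over all probes. With siCONT, 3 of the 40 probes were detected on both arrays (7.5%), whereas 43.5% of all probes were. Under the scanner's looser flag, positive and significant, 23 and 19 members counted as detected on the siCONT arrays, beside 64.0% and 62.7% of all probes. The 3 were the GAGE2B probe, 1 of the 2 SSX2 probes and 1 of the 2 SSX3 probes. TSA alone left the number at 3. With UHRF1 depletion alone 10 probes of 9 genes were detected on both arrays, with UHRF1 depletion and TSA 20 probes of 17 genes, and on the 5-aza-dC array 30 probes of 22 genes, each time including the 3 of siCONT. Over all probes the share was 42.7% with siCONT + TSA, 44.4% with siUHRF1, 44.5% with siUHRF1 + TSA and 51.6% with 5-aza-dC.

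**Figure D1:**
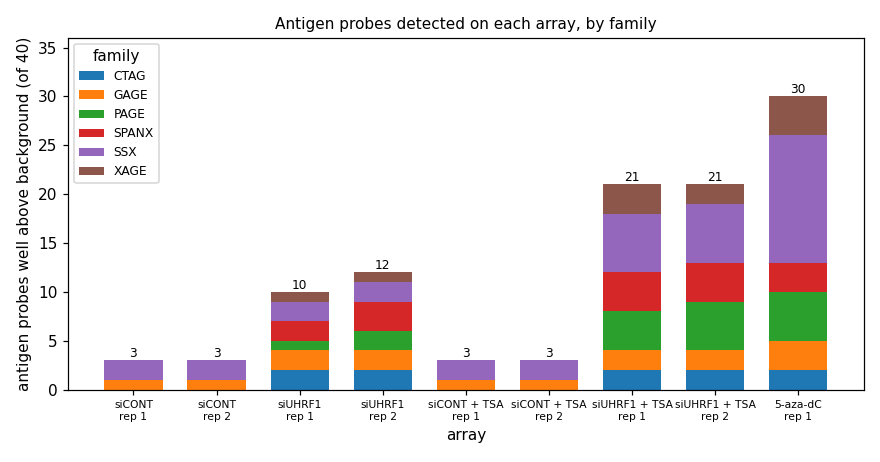
Number of the 40 antigen probes well above background on each of the 9 arrays, stacked by family. The bars stand at 3 on each siCONT and siCONT + TSA array, at 10 and 12 with siUHRF1, at 21 on each siUHRF1 + TSA array and at 30 with 5-aza-dC.

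The 3 members detected with siCONT were detected on all 9 arrays, so leaving them out could not alter the order of the groups. It left 37 members that neither siCONT array detected. Of these, 0 were detected on both siCONT + TSA arrays, 7 (18.9%) on both siUHRF1 arrays, 17 (45.9%) on both siUHRF1 + TSA arrays and 27 (73.0%) on the 5-aza-dC array. Among all 26985 probes that neither siCONT array detected, the shares were 0.852%, 1.40%, 3.11% and 14.5%. The patterns were nested in part. There were 7 probes detected on both arrays of both UHRF1-depleted groups and with 5-aza-dC (CTAG1A, CTAG2, GAGE7, PAGE2B, XAGE1A and both SPANXB2 probes), and 8 probes detected on both siUHRF1 + TSA arrays and on no other siRNA array, of which 6 were also detected with 5-aza-dC (PAGE1, SSX1, XAGE3 and the 3 SSX4B probes) and 2 were not (PAGE4 and SPANXN2). PAGE2 and SPANXA1 were detected on 1 of the 2 siUHRF1 arrays. A further 10 probes of 8 genes were detected with 5-aza-dC only, and 8 probes of 7 genes were detected on no array.

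**Figure D2:**
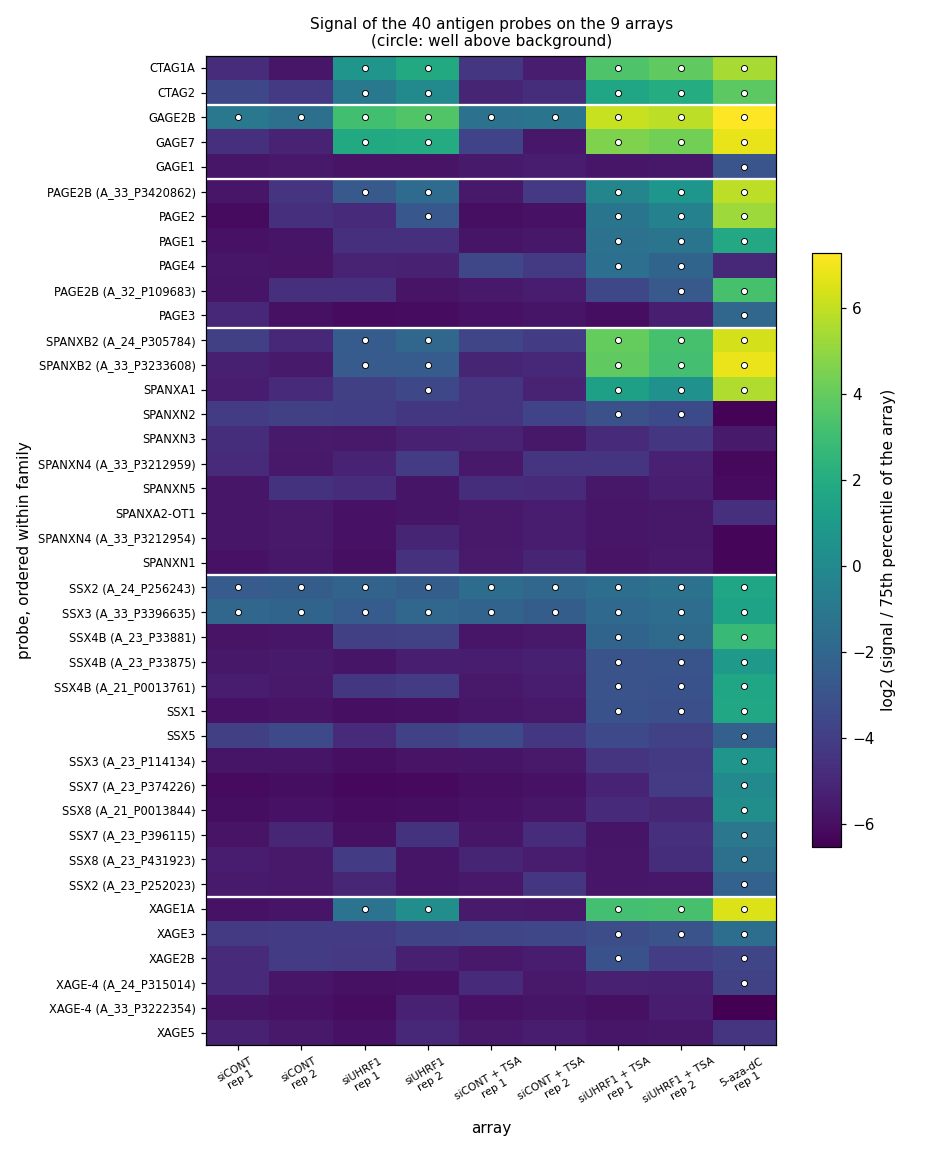
Log2 signal relative to each array's 75th percentile for the 40 antigen probes (rows, by family) on the 9 arrays (columns), with a circle where a probe was well above background. The siCONT and siCONT + TSA columns look alike, and the signal of CTAG, GAGE and some PAGE, SPANX and XAGE probes rises from siUHRF1 through siUHRF1 + TSA to 5-aza-dC.

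Changes were tested with limma on all 50599 probes, with Benjamini-Hochberg adjustment over all of them. A probe was called higher where its adjusted p was below 0.05 and every array of the brighter group was above background. Where the dimmer group was below background, the fold is a lower limit ("at least") set by the dimmest signal that counted as detected on its arrays. No member was called lower in any of the 7 comparisons.

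With UHRF1 depletion alone, 5 of the 40 probes were called higher than with siCONT (12.5%, against 0.0949% of all probes). They were CTAG1A, GAGE2B, GAGE7, XAGE1A and 1 of the SPANXB2 probes. GAGE2B rose by 4.56 on the log2 scale (SE 0.22, limma adjusted p = 0.0106), and the lower limits were 49.8-fold for GAGE7, 31.6-fold for CTAG1A, 9.42-fold for XAGE1A and 2.27-fold for SPANXB2. Another 3 probes passed the adjusted p without passing the detection requirement. Leaving out any 1 of the 8 siRNA arrays took the count to 1 or 2 probes, and with the replicate number as a block it was 0. The median of the 40 log2 changes was 0.20, against -0.09 over all probes.

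With TSA alone, 0 of the 40 probes were called higher (background 0.769% of all probes). At an unadjusted limma p below 0.05, 3 members were higher and 1 was lower. The methods' t-test also called 0 members unadjusted. After adjustment it called 0 members in every comparison it was run on, so its 0 here is not particular to TSA. The 1 member that passed the adjusted p was PAGE4, with signals of 0.0192 and 0.0177 on the siCONT arrays and 0.0821 and 0.0539 on the siCONT + TSA arrays, none of them above background. The median of the 40 log2 changes was 0.14, close to the 0.12 over all probes.

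With both treatments, 18 of the 40 probes were called higher than with siCONT (45.0%, against 4.07% of all probes), and they came from every one of the 6 families. These were 5 SSX, 4 PAGE, 3 SPANX, 2 CTAG, 2 GAGE and 2 XAGE probes. Against siCONT + TSA, 15 were called higher (37.5%, against 0.854%), and against siUHRF1 alone 12 were (30%, against 1.83%). The median of the 40 log2 changes was 1.04, 1.06 and 1.13 in these 3 comparisons, while the medians over all probes were 0.00, -0.11 and 0.12. Under normexp background correction the first and second counts fell to 10 and 8, and with only the arrays of the groups compared the count against siUHRF1 was 0. The comparisons share arrays, so the 3 counts are not independent of each other. The arrays of siUHRF1 and siUHRF1 + TSA also share siRNAs by replicate, and the fit did not pair them. On the slide, all siCONT arrays lay in other columns than the siUHRF1 arrays and all mock arrays in another row than the TSA arrays, so position and treatment cannot be told apart.

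**Figure D3:**
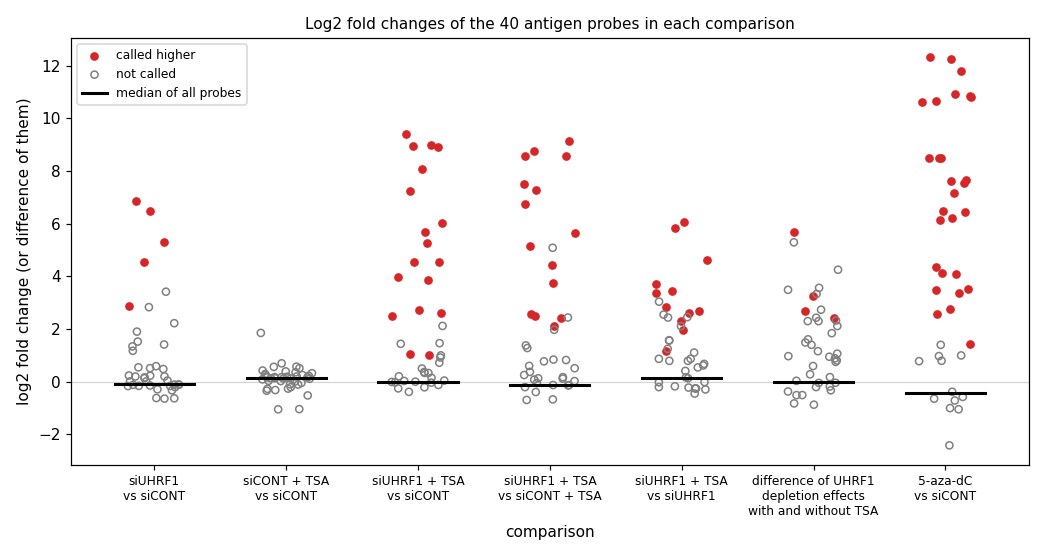
Log2 fold changes of the 40 antigen probes in each of the 7 comparisons (the sixth is a difference of 2 such changes), with probes called higher filled and the median over all probes as a bar. Filled points are absent for siCONT + TSA vs siCONT (0 of 40) and most frequent for siUHRF1 + TSA vs siCONT (18) and 5-aza-dC vs siCONT (28).

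GAGE2B and GAGE7 rose with UHRF1 depletion and again stood higher with both treatments. The GAGE2B probe, which a tandem array of near-identical copies may share, read 0.488 and 0.362 with siCONT and 0.387 and 0.429 with siCONT + TSA. It read 8.46 and 11.6 with siUHRF1, 68.3 and 59.3 with siUHRF1 + TSA and 153 with 5-aza-dC. The siCONT and siCONT + TSA arrays overlapped, and the siUHRF1, siUHRF1 + TSA and 5-aza-dC arrays stood apart from these and from each other. GAGE2B rose by 7.24 on the log2 scale with both treatments (SE 0.22, limma adjusted p = 0.000402) and by 2.69 from siUHRF1 to siUHRF1 + TSA (limma adjusted p = 0.00813). GAGE7 followed the same steps from below background, at 0.0385 and 0.0269 with siCONT, 0.0738 and 0.0198 with siCONT + TSA, 3.60 and 3.79 with siUHRF1, 23.7 and 19.7 with siUHRF1 + TSA and 113 with 5-aza-dC. It was at least 291-fold higher with both treatments than with siCONT (limma adjusted p = 0.00261). The GAGE1 probe stayed between 0.0175 and 0.0232 on all 8 siRNA arrays, below background, and read 0.133 with 5-aza-dC, a difference that was called but turned negative under normexp background correction. The RefSeq promoter windows of GAGE1 and GAGE12F, the gene matched to GAGE7 by synonym, are the same sequence where they align. Near-identical copies may share the GAGE7 probe too, so the window is not shown to belong to the gene measured.

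Both CTAG genes were called higher with both treatments than with siCONT and than with siCONT + TSA. CTAG1A read 0.0364 and 0.0193 with siCONT, 0.0489 and 0.0225 with siCONT + TSA, 1.56 and 3.53 with siUHRF1, 10.9 and 14.7 with siUHRF1 + TSA and 43.0 with 5-aza-dC. It was at least 171-fold higher with both treatments than with siCONT (limma adjusted p = 0.00274) and at least 154-fold higher than with siCONT + TSA (adjusted p = 0.00515). CTAG2, the LAGE-1 gene, read 0.0836 and 0.0540 with siCONT, 0.0289 and 0.0368 with siCONT + TSA, 0.520 and 0.988 with siUHRF1, 3.01 and 4.05 with siUHRF1 + TSA and 13.7 with 5-aza-dC. Its lower limit against siCONT was 43.8-fold (adjusted p = 0.00293). With UHRF1 depletion alone CTAG1A was called (limma adjusted p = 0.0375) and CTAG2 was not (adjusted p = 0.0749), and from siUHRF1 to siUHRF1 + TSA CTAG2 was called (adjusted p = 0.0431, lost in 10 of 21 alternatives) and CTAG1A was not (adjusted p = 0.0942). These differences between the genes were not tested. For both genes the siUHRF1 arrays lay above every siCONT and siCONT + TSA array and below every siUHRF1 + TSA array.

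XAGE1A, an antigen gene known from lung adenocarcinoma and Ewing sarcoma, rose in the same steps. It read 0.0172 and 0.0185 with siCONT, 0.0215 and 0.0202 with siCONT + TSA, 0.409 and 1.19 with siUHRF1, 8.89 and 9.36 with siUHRF1 + TSA and 91.3 with 5-aza-dC. It was at least 123-fold higher with both treatments than with siCONT (limma adjusted p = 0.00154) and rose by 3.71 on the log2 scale from siUHRF1 to siUHRF1 + TSA (SE 0.47, adjusted p = 0.0235, lost in 8 of 21 alternatives). The rest of the XAGE family stayed low. XAGE3 reached 0.104 and 0.126 with both treatments and 0.337 with 5-aza-dC, its call with both treatments being lost in 10 of 21 alternatives, and XAGE2B was detected on only 1 of the 2 siUHRF1 + TSA arrays (0.120 and 0.0599). XAGE5 and 1 of the 2 XAGE-4 probes were detected on no array, and the other XAGE-4 probe only with 5-aza-dC, at 0.0684.

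The SPANX family split in 2. SPANXB2 was detected at a low level with UHRF1 depletion alone and was high with both treatments, on both of its probes. The first probe (A_33_P3233608) read 0.0249 and 0.0214 with siCONT, 0.0289 and 0.0316 with siCONT + TSA, 0.167 and 0.170 with siUHRF1, 14.7 and 8.77 with siUHRF1 + TSA and 114 with 5-aza-dC. The second (A_24_P305784) read 0.0655 and 0.0314, 0.0797 and 0.0561, 0.175 and 0.255, 15.8 and 9.40, and 83.7 in the same order of groups. The step from siUHRF1 to siUHRF1 + TSA was 6.07 and 5.85 on the log2 scale (SE 0.25 and 0.46, limma adjusted p = 0.00147 and 0.00777). SPANXA1 read 0.0655 and 0.0849 with siUHRF1, 2.47 and 1.33 with siUHRF1 + TSA and 49.7 with 5-aza-dC, from 0.0231 and 0.0341 with siCONT. It was at least 24.4-fold higher with both treatments than with siCONT (adjusted p = 0.00305).

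The SPANXN genes, the other branch of the family, stayed near background. SPANXN1, SPANXN3, SPANXN5 and both SPANXN4 probes were detected on no array, and their highest signal on any array was 0.0556. SPANXA2-OT1, a noncoding transcript beside SPANXA2, was not detected either. SPANXN2 was detected on both siUHRF1 + TSA arrays, at 0.114 and 0.0902, but its siCONT signals of 0.0590 and 0.0643 were close to these and the change was not called (0.72 on the log2 scale, limma adjusted p = 0.187). The promoter windows of SPANXN1 and SPANXB1 printed above match at 95.2% of aligned bases.

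Among the PAGE genes, PAGE4 was detected with both treatments and not with 5-aza-dC. PAGE4 is known as a prostate antigen, and it read 0.0192 and 0.0177 with siCONT, 0.0269 and 0.0257 with siUHRF1, 0.0821 and 0.0539 with siCONT + TSA, 0.351 and 0.237 with siUHRF1 + TSA and 0.0316 with 5-aza-dC. Only the siUHRF1 + TSA arrays were above background. It was at least 3.89-fold higher with both treatments than with siCONT (limma adjusted p = 0.00289) and at least 3.42-fold higher than with siCONT + TSA (adjusted p = 0.0319). The call against siCONT + TSA was lost in 11 of 21 alternatives and that against siCONT in 2, and the 5-aza-dC array was not called (adjusted p = 0.107). Of the 20 members detected on both siUHRF1 + TSA arrays, 18 (90%) were also detected with 5-aza-dC, against 97.4% of all such probes, and the exceptions were PAGE4 and SPANXN2. Relative to the 75th percentile, the dimmest detected probe stood at 0.0506 on the 5-aza-dC array and at 0.0734 and 0.0757 on the siUHRF1 + TSA arrays. The 75th percentile itself was 553 fluorescence units with 5-aza-dC and 196 and 188 with siUHRF1 + TSA. Whether the limit of detection has a part in these exceptions was not tested.

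PAGE1, PAGE2 and PAGE2B stood higher with 5-aza-dC than with both treatments. PAGE2B (A_33_P3420862) read 0.0192 and 0.0473 with siCONT, 0.154 and 0.298 with siUHRF1, 0.842 and 1.62 with siUHRF1 + TSA and 59.2 with 5-aza-dC. PAGE2 read 0.0328 and 0.144 with siUHRF1, 0.445 and 0.711 with siUHRF1 + TSA and 37.7 with 5-aza-dC, and PAGE1 read 0.0401 and 0.0388, 0.399 and 0.421, and 3.45. The lower limits for both treatments against siCONT were 15.7-fold for PAGE2B, 7.59-fold for PAGE2 and 5.52-fold for PAGE1 (limma adjusted p = 0.016, 0.0342 and 0.000268). The PAGE2 call was lost in 8 of 21 alternatives. The other PAGE2B probe (A_32_P109683) was detected on only 1 of the siUHRF1 + TSA arrays, at 0.0853 and 0.153, so the 2 probes of this gene differed in level. PAGE3 was detected with 5-aza-dC only, at 0.256.

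The SSX genes stayed at or below 0.394 on the siRNA arrays, and all 13 of their probes were detected with 5-aza-dC. SSX4B, by its brightest probe (A_23_P33881), read 0.0176 and 0.0189 with siCONT, 0.0187 and 0.0206 with siCONT + TSA, 0.0664 and 0.0696 with siUHRF1, 0.233 and 0.296 with siUHRF1 + TSA and 6.62 with 5-aza-dC. Its 3 probes were all called higher with both treatments, at least 3.54-fold, 1.71-fold and 1.64-fold above siCONT. SSX1, a partner in the synovial sarcoma fusion, read 0.0168 and 0.0179 with siCONT, 0.0157 and 0.0162 with siUHRF1, 0.121 and 0.109 with siUHRF1 + TSA and 3.26 with 5-aza-dC. Its siUHRF1 arrays were no higher than its siCONT arrays. Against siCONT + TSA, the changes of SSX1 and of 2 SSX4B probes were called higher, but they turned slightly negative under normexp background correction. SSX5, SSX7 and SSX8 were detected with 5-aza-dC only, at 0.201 to 1.21.

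The probes of SSX2 and SSX3 disagreed with each other. The SSX2 probe A_24_P256243 was detected on all 9 arrays, at 0.170 and 0.180 with siCONT, 0.228 and 0.176 with siUHRF1, 0.320 and 0.249 with siCONT + TSA, 0.339 and 0.394 with siUHRF1 + TSA and 3.0 with 5-aza-dC. Its change with both treatments was 1.07 on the log2 scale (SE 0.19, limma adjusted p = 0.0328), and this call was lost in 12 of 21 alternatives. The other SSX2 probe read 0.0181 to 0.0482 on the siRNA arrays, below background, and 0.218 with 5-aza-dC. The SSX3 probe A_33_P3396635 read 0.175 to 0.327 on the siRNA arrays, with no call in any of the 6 comparisons among them, whereas the other SSX3 probe was below background on all 8 and read 1.57 with 5-aza-dC.

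The SSX oligos share runs of bases, which is why the runs are shown. The lines give 30 bases of each 60-base probe, with the longest run common to the pair in capitals: 28 bases for the SSX7 probe A_23_P374226 and the SSX8 probe A_21_P0013844, which match at 52 of 60 bases, and 27 bases for the SSX2 probe A_24_P256243 and the SSX7 probe A_23_P396115, which match at 32.
SSX7 A_23_P374226: aTCAGGTTGAACGTCCTCAGATGACTTTTt
SSX8 A_21_P0013844: tTCAGGTTGAACGTCCTCAGATGACTTTTg
SSX2 A_24_P256243: gGGAAAACCAACTACCTCTGAGAAGATTca
SSX7 A_23_P396115: GGAAAACCAACTACCTCTGAGAAGATTaac

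The SSX7 and SSX8 probes of the first pair read 1.05 and 1.21 with 5-aza-dC and were below background on all siRNA arrays. In the second pair the SSX2 probe was detected on every array and the SSX7 probe only with 5-aza-dC, at 0.473. Signal from one SSX transcript on another gene's probe cannot be told apart from that gene's own signal, and how far it contributed was not tested. The next longest run between probes of different genes was 19 bases, between SSX1 (A_32_P55135) and SSX4B (A_23_P33875).

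**Figure D4:**
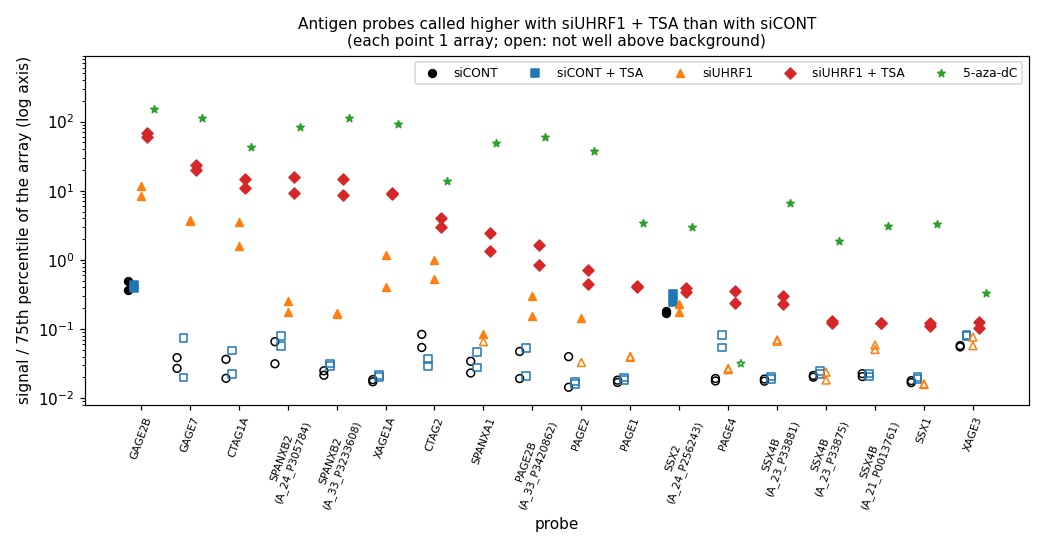
Signal relative to the array's 75th percentile (log axis) for the 18 antigen probes called higher with siUHRF1 + TSA than with siCONT, ordered by their siUHRF1 + TSA level. Each point is 1 array and open symbols were not well above background. CTAG, GAGE and XAGE1A show an intermediate siUHRF1 level, SPANXB2 a low one, and PAGE4 lies lower with 5-aza-dC than with siUHRF1 + TSA.

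A difference of differences asked whether TSA altered what UHRF1 depletion did. Of the 40 probes, 4 were called (10.0%, against 0.0949% of all probes), all with the larger effect under TSA: SPANXB2 (A_33_P3233608), PAGE1, SSX1 and SSX4B (A_23_P33875). The difference was 5.68 on the log2 scale for SPANXB2 (SE 0.35, limma adjusted p = 0.0166), 3.26 for PAGE1, 2.68 for SSX1 and 2.42 for SSX4B. For all 4 probes the siCONT and siCONT + TSA arrays were below background, and for PAGE1, SSX1 and SSX4B the siUHRF1 arrays were too, so the sizes depend on signals that were not detected, and that of SSX4B turned negative under normexp background correction. Without the siUHRF1-1 mock array 0 members were called, without siCONT + TSA replicate 1 there was 1 and without siCONT + TSA replicate 2 there were 2. GAGE2B, which was above background in every group, had a difference of 2.73 (SE 0.31, adjusted p = 0.0752) and was not called, and neither were CTAG1A, GAGE7 and XAGE1A, which does not show that the effects were equal.

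The 2 siRNAs against UHRF1 can be set side by side with 1 array of each. Under TSA, 11 of the 20 members detected on both arrays were higher with siUHRF1-2 and 9 with siUHRF1-1, with a median log2 ratio of 0.07 (range -0.90 to 0.95). Single members thus differed between the siRNAs in both directions, beside a median absolute difference of 0.18 over the probes detected on every siRNA array. Without TSA, 9 of 10 were higher with siUHRF1-2, with a median of 0.54 (range -0.37 to 1.54), whereas the median over probes detected on every siRNA array was 0.07. The highest ratio was that of XAGE1A, with 0.409 for siUHRF1-1 and 1.19 for siUHRF1-2. These ratios have no replicate and were not tested.

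With 5-aza-dC, 28 of the 40 probes were called higher than with siCONT (70%, against 12.5% of all probes), with a median log2 change of 4.23 against -0.44 over all probes. The fit gave this lone array the spread of the siRNA groups, and it lay on another slide and in another scan, so that slide and drug cannot be told apart. The lower limit against siCONT was above that of the combination for SPANXA1 (670-fold against 24.4-fold), PAGE2B (798-fold against 15.7-fold) and CTAG1A (580-fold against 171-fold). GAGE2B had the smallest gap among the bright probes, with 153 on the 5-aza-dC array and 59.3 to 68.3 with both treatments. Spike-in scaling moved the median log2 change of all probes from -0.443 to -2.18 with 5-aza-dC. With both treatments it moved that median only from -0.002 to -0.132, so gaps between these levels depend on the scaling. Of the 12 members not called with 5-aza-dC, 10 were below background on that array, and the others were SSX5 and XAGE2B, at 0.201 and 0.0776.

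**Figure D5:**
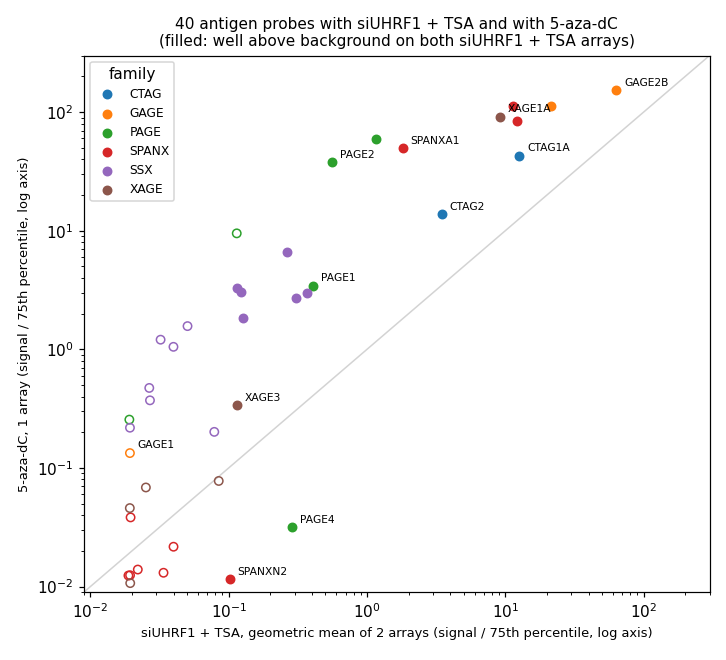
Signal with siUHRF1 + TSA (geometric mean of 2 arrays) against signal with 5-aza-dC (1 array) for the 40 antigen probes, both relative to the array's 75th percentile on log axes, with the line of equal values. With this scaling, of the 20 filled probes, detected on both siUHRF1 + TSA arrays, 18 lie above the line and PAGE4 and SPANXN2 below it. Distances from the line depend on the scaling.

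On its 2 probes, UHRF1 itself fell by 2.46 and fell by 2.33 on the log2 scale without TSA (limma adjusted p = 0.0168 for both) and fell by 3.36 and fell by 2.86 under TSA (adjusted p = 0.00121 and 0.00245), and TSA alone did not change it beyond the threshold. The 5-aza-dC array had a higher UHRF1 signal, by 1.00 and 0.98. The 75th percentile ranged from 170 to 222 fluorescence units among the siRNA arrays and was 553 with 5-aza-dC, no spot was saturated, and each siRNA array detected 43.6% to 46.6% of its probes. KRT18, CDX2 and 2 of 3 KRT8 probes, which mark colorectal epithelium, were detected on all arrays and the other KRT8 probe on 5. CDH1 and VIL1 were detected on none, EPCAM and KRT20 on 2 each and KRT19 on 3. Of 12 probes for such markers and VIM, 6 were called higher with both treatments (50%, against 4.07% of all probes), for 4 genes. VIM rose with TSA alone too, by 2.85 on the log2 scale. Whether that change of the line's own markers has a part in the antigen results was not tested. Of the 8 probes for late male germ cell genes, 0 were called in any comparison, and PRM1, TNP1 and AKAP4 were detected on no array, PRM2 on 3 and 1 of 3 ACR probes on all 9. AMH, INHA and SOX9, which mark Sertoli cells, gave 0 calls among the siRNA comparisons and 2 with 5-aza-dC (66.7%, against 12.5% of all probes). AMH was detected on all 9 arrays, and INHA and SOX9 on 1 each. Of 14 probes for leukocyte, endothelial and fibroblast genes, 1 was called higher with both treatments (7.14%, against 4.07% of all probes). This was a VWF probe, which was also higher with TSA alone. It was detected on 7 arrays, another VWF probe on 8 and COL1A1 on all 9. Single PTPRC probes were detected on 6 and 3 arrays and CD3E on 1. COL3A1, PECAM1 and the remaining VWF and PTPRC probes were detected on none.

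Other genes of the same kind moved in the same comparisons. Of 39 probes for 31 other cancer-testis genes, 1 was called higher with UHRF1 depletion, 1 with TSA, 19 with both treatments against siCONT (48.7%) and 34 with 5-aza-dC (87.2%). Over all probes the shares called higher in these comparisons were 0.0949%, 0.769%, 4.07% and 12.5%, and the counts below stand beside the same shares. Among those called with both treatments were MAGEA9, MAGEA4 and MAGEC1, which were below background with siCONT and at least 12.9-fold, 9.81-fold and 9.36-fold higher. Of 19 probes on a second list, of germline genes, 5 were called higher with both treatments (26.3%) and 15 with 5-aza-dC (78.9%). SOHLH1, a transcription factor of early germ cells, was at least 70.4-fold higher with both treatments. Of 1055 other probes on the X chromosome, 88 were called higher with both treatments (8.34%) and 246 with 5-aza-dC (23.3%). Of 46 probes for the DNA methylation and deacetylation machinery, 3 were called higher and 3 lower with both treatments. These were 6.52% each, against 4.07% higher and 2.25% lower over all probes. Among them were TET1, a methylcytosine dioxygenase, at least 3.91-fold higher, and both probes of the siRNA target UHRF1, which were lower. CTCFL, a germline paralogue of CTCF known for binding cancer-testis promoters, was called only with 5-aza-dC. With both treatments CTCFL was 1.37 higher on the log2 scale than with siCONT (limma adjusted p = 0.0365). It was 1.52 higher than with siUHRF1 (adjusted p = 0.0414). Neither change passed the detection requirement.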

How the data were processed

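RNA of RKO cells was hybridized to 9 one-colour Agilent arrays. Per the file headers, the authors extracted spot signals with Feature Extraction 10.7.3.1, and the deposited intensity values are background-subtracted linear signals with surrogates for dim spots. The deposited value table holds the same intensity, rounded. Gene names and probe positions (hg19) are those of the files. From these, log2 signals minus each array's 75th percentile over probes were computed here, leaving out outlier spots and averaging spots of a probe. limma 3.58.1 (R 4.3.3, lmFit and eBayes, 4 siRNA groups in 1 fit, 5-aza-dC in a fit of all 9 arrays) was run on all 50599 probes with no filter, so that every member was tested, and with Benjamini-Hochberg adjustment. Lower limits of fold used each array's dimmest detected signal or the probe's own. The fit was tested on simulated data with independent noise on each array and without the detection requirement. That test did not cover the calls as defined here. Between groups that do not share siRNAs against UHRF1, the deviations of the replicates correlated at -0.06 to 0.08. Between siUHRF1 and siUHRF1 + TSA, whose replicates share an siRNA, they correlated at 0.56. The main fit paired no arrays, also in the comparison of these groups and in the difference of differences. The replicate block gave all groups the same replicate effect.

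The members, lists and tests were chosen with earlier results of these data known. Values in every array were given for genes whose brightest probe was detected on both siUHRF1 + TSA arrays, for probes detected on both siCONT arrays, and for the brightest of each family, and further members were given by range. The lists were other cancer-testis, germline, methylation machinery, other X-linked, epithelial, other cell type, late germ cell and Sertoli cell genes. Alternatives were other background, scaling and filter settings, the deposited table, a replicate block, fewer arrays, another prior and the methods' t-test.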

Additional observations from a re-analysis of the deposited data

Results flagged for a closer look

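The effect of UHRF1 depletion differed between cells with and without TSA for 4 member probes, by the limma test of the difference itself. The difference, with TSA minus without, was 5.68 on the log2 scale for SPANXB2 (A_33_P3233608, SE 0.35, adjusted p = 0.0166), and the other SPANXB2 probe was not called. It was 3.26 for PAGE1 (SE 0.13, adjusted p = 0.0073), 2.68 for SSX1 (SE 0.14, adjusted p = 0.0134) and 2.42 for SSX4B (A_23_P33875, SE 0.21, adjusted p = 0.0334). All 4 probes were below background on the siCONT and siCONT + TSA arrays, so the sizes depend on signals that were not detected. For SPANXB2 both siUHRF1 arrays were above background at 0.167 and 0.170, and for the other 3 probes only the siUHRF1 + TSA and 5-aza-dC arrays were.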

How the results depend on the processing

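The counts of members called higher kept their size, within 1.5 times, under the deposited table, outlier spots kept and a shift by the median of always detected probes. Under normexp background correction with its offset, the counts were 3 for siUHRF1 vs siCONT, 10 for siUHRF1 + TSA vs siCONT, 8 for siUHRF1 + TSA vs siCONT + TSA and 2 for the difference of differences, and 6 changes of dim probes turned negative: SSX1 (-0.028), SSX4B (-0.11 and -0.13) against siCONT + TSA, SSX4B in the difference (-0.15), and GAGE1 (-0.17) and XAGE-4 (-0.43) with 5-aza-dC. XAGE-4 also turned under spike-in scaling (-0.33), which moved the median of all probes from -0.44 to -2.18 with 5-aza-dC. Quantile normalization gave 2 for siUHRF1 vs siCONT. With no requirement on detection there were 8 for siUHRF1 vs siCONT and 1 for siCONT + TSA vs siCONT, and with a filter on dim probes 7 for the difference. With the replicate block, siUHRF1 vs siCONT had 0 calls and the difference 1, and the block moved no other count by over 1.5 times. Fitting only the arrays of the groups compared gave 0 for siUHRF1 vs siCONT and 0 for siUHRF1 + TSA vs siUHRF1, and a trended and robust prior gave 0 for the difference. Each cause was not tested.

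The methods' t-test gave 0 calls after adjustment in every comparison it was run on, and unadjusted 6, 0, 18, 16 and 13 for siUHRF1 vs siCONT, siCONT + TSA vs siCONT, and siUHRF1 + TSA vs siCONT, siCONT + TSA and siUHRF1. Leaving out 1 siRNA array at a time gave 1 to 2 calls for siUHRF1 vs siCONT, 0 to 5 for the difference, 0 for TSA alone, 14 to 18, 13 to 14 and 10 to 13 for the 3 comparisons of siUHRF1 + TSA, and 27 to 28 for 5-aza-dC. With the looser positive and significant flag in place of the stricter one, 23 and 19 members counted as detected on the siCONT arrays, 26 and 29 with siUHRF1, 19 and 19 with siCONT + TSA, 30 and 35 with siUHRF1 + TSA and 34 with 5-aza-dC, beside 61.6% to 69.0% of all probes. With 2 arrays a group, and with members near background, small changes cannot be told from none.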
